A study of Mus with 14 samples.

Results

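The neutrophil secondary granule and S100 genes described here were 7 of the 32285 genes in the files. They were S100a8, S100a9, Camp, Ngp, Ltf, Lcn2 and Retnlg, a list named gene by gene and chosen with earlier results of these data known. They were measured in every library, by group, by mouse and by lineage. Lineages were set by the summed unique molecular identifiers (UMIs, 1 per captured RNA molecule) of other marker genes, so no member of the list took part in defining the cells. Of 66895 kept cells, 1998 (2.99%) passed the marker gate for maturing neutrophils.

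Neutrophils fill their granules in sequence as they mature in the marrow: primary granules with Mpo and elastase in promyelocytes, secondary (specific) granules in myelocytes, and tertiary granules later. S100a8 and S100a9 form calprotectin, a calcium-binding and metal-binding complex that fills much of the neutrophil cytosol and acts as a danger signal when released. Camp (cathelicidin, an antimicrobial peptide precursor), Ngp (neutrophilic granule protein), Ltf (lactoferrin, which binds iron) and Lcn2 (lipocalin 2, which binds the iron carriers of bacteria) are secondary granule proteins, and Retnlg is a resistin-like secreted protein of late neutrophils. C/EBPε, the product of Cebpe, is the transcription factor known to be needed for the secondary granule genes.

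The study transplanted CD45.2+ bone marrow from primary recipients into aged, lethally irradiated CD45.1+ hosts and harvested them 20 weeks later. Each library came from 1 mouse and held donor cells sorted as lineage-negative, Kit-positive and CD45.2+. The groups were MxCre (n = 3), Dnmt3a (n = 4), Dnmt3a;Tnfr1KO (n = 3, called Tnfr1KO-labelled) and Dnmt3a;Tnfr2KO (n = 4, called Tnfr2KO). Genotypes are known only by these labels, which give neither the Dnmt3a allele nor the age or sex of the donors. All donor marrow had passed through a primary recipient given poly(I:C), the inducer of Mx-Cre recombination in blood-forming and other interferon-responsive cells. In those primary recipients the CD45.2+ cells had been transplanted together with CD45.1+ competitor cells, and the sort for CD45.2 left CD45.1+ cells out. No label ties a mouse to its primary donor. Where donors were shared, the p-values measure only the spread between these samples.

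Total counts ran from 62416022 to 162869740 UMIs per library, and kept cells had a median of 10668 to 39097.5 UMIs. The lowest of these medians belonged to Dnmt3a replicate 4. Dnmt3a replicate 1 also stood apart, with 26.5% of its barcodes kept, because 5138 of 7257 fell short of 1000 UMIs. Any pair of libraries shared 1 to 15 cell barcodes over the 91 pairs. Tnfrsf1b, the gene of Tnfr2, was lower in Tnfr2KO than in Dnmt3a by edgeR's quasi-likelihood test (log2 fold change -1.44, adjusted p = 5.92e-04). Tnfrsf1a, the gene of Tnfr1, did not pass the threshold between Tnfr1KO-labelled and Dnmt3a (log2 fold change -0.19, adjusted p = 0.596), so the transcript does not check that label; 3' end counting need not lose a transcript whose coding part is disrupted. The Dnmt3a transcript itself was at 29.6 to 38.8 CPM (UMIs scaled to 1000000 per sum of cells) in Dnmt3a and 21.6 to 30.8 CPM in MxCre (log2 fold change 0.32, adjusted p = 0.0802). It was lower in Tnfr1KO-labelled (log2 fold change -0.48, adjusted p = 0.0475) than in Dnmt3a, and in Tnfr2KO the difference was -0.36 (adjusted p = 0.0638), with both receptor groups at 18.9 to 23.1 CPM although all 3 groups carry the Dnmt3a label.

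In the GRCm38 annotation of RefSeq, S100a8 lay on chromosome 3 from 90669071 to 90670034 and S100a9 on the same chromosome from 90692630 to 90695721, with 22.6 kb and no annotated gene between them. Chromosome 9 carried Camp (109847377 to 109849456), Ngp (110419808 to 110423012) and Ltf (111019292 to 111042766). Camp and Ngp were 570.4 kb apart with 18 annotated genes between them, and Ngp and Ltf 596.3 kb apart with 25. Lcn2 lay on chromosome 2 (32384637 to 32387739) and Retnlg on chromosome 16 (48872608 to 48874498). The secondary granule genes were therefore spread over 2 chromosomes, and the S100 pair was the only pair of members that were direct neighbours.

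The signal of the 7 genes was concentrated in few cells. Cells with at least 40 marker UMIs per 10000 and at least 3 of the 9 markers detected (Cd177, Ly6g, Itgb2l, Mmp8, Abca13, Wfdc21, Pglyrp1, Ceacam10 and Padi4) made up the maturing neutrophil gate. These cells, 2.99% of those kept, held 91.1% of all UMIs of the 7 genes, and in the median cell of the gate the 7 genes were 44.0% of all UMIs. Granulocyte progenitors with at least 1 Cebpe UMI per 10000, called Cebpe-positive and 17.3% of cells, held another 6.89%. Those below this rate are called Cebpe-negative, and they may still hold Cebpe UMIs. The remaining cells, which were most of the cells sorted, together held the small rest.

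The members differed in how much of their signal lay outside the gate. Ngp (98.8% inside), Ltf (98.7%), Camp (97.6%), Retnlg (95.7%) and S100a9 (94.0%) lay nearly wholly in maturing neutrophils. S100a8 (84.8%) and Lcn2 (86.1%) were the exceptions. Of S100a8, 12.8% of UMIs were in Cebpe-positive progenitors. Of Lcn2, 6.45% were in Cebpe-positive and 4.54% in Cebpe-negative granulocyte progenitors, and 1.62% in monocyte progenitors. These shares are pooled over libraries of unequal size. By library, the gate held between 64.2% (Dnmt3a replicate 3) and 95.7% (Dnmt3a replicate 4) of the signal, and with Cebpe-positive progenitors between 86.9% and 99.1%.

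At the edge of the gate, the 55 cells just inside (40 to 50 marker UMIs per 10000) had a median of 20.1% of their UMIs in the 7 genes, and the 107 cells just outside (30 to 40) a median of 4.21%. The gate cells were also low in the transcript of Kit, the surface receptor used in the sort. Kit was at 6.45 to 51.7 CPM per library in maturing neutrophils, with a median of 33.7 CPM, and 54.5 to 172 CPM in Cebpe-positive progenitors. Since the 7 genes took 34.4% to 47.0% of the UMIs of maturing neutrophils, the CPM of every other gene was lowered there by that much. Whether these cells carried Kit protein cannot be read from RNA.

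**Figure D1:**
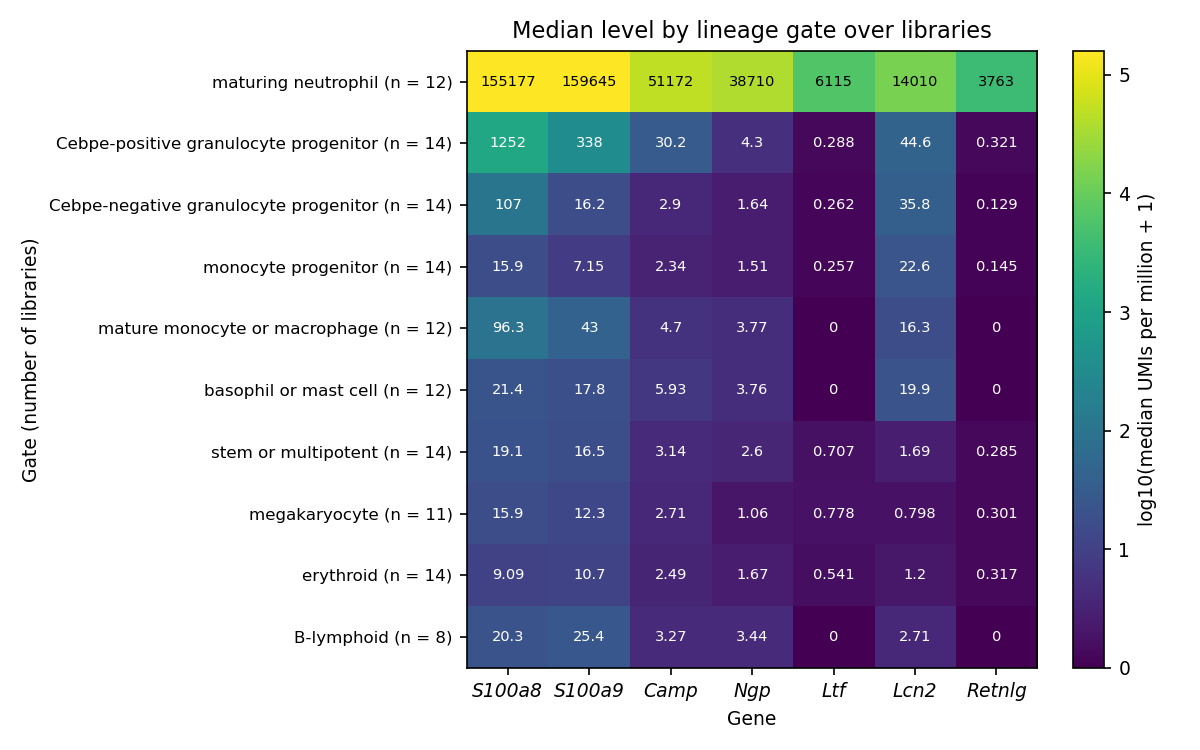
Median level of each of the 7 genes (columns) in the libraries with at least 20 cells of a lineage gate (rows), as log10 of the median CPM plus 1. All 7 genes are at their highest in maturing neutrophils, S100a8 and S100a9 are next highest in Cebpe-positive granulocyte progenitors, and Lcn2 is seen in granulocyte, monocyte and basophil or mast cell gates but hardly in stem, erythroid or megakaryocyte cells. Pooled over libraries, Lcn2 was at 12.8 CPM in B-lymphoid cells and 55.7 CPM in mature monocytes or macrophages.

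In maturing neutrophils, the 2 S100 genes were the most abundant members. These 3' libraries count each RNA molecule at its end, so levels of different genes can be set side by side without a correction for length. Over the 12 libraries with at least 20 such cells, S100a9 had a median of 159645 CPM (130152 to 183351) and S100a8 a median of 155177 CPM (107589 to 191548). Their ranges overlapped and their order differed between libraries. On average S100a8 supplied 36.0% and S100a9 37.3% of the UMIs of the 7 genes in maturing neutrophils.

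The secondary granule genes came next in the maturing neutrophil gate. Camp had a median of 51172 CPM (36391 to 56216), Ngp 38710 CPM (34677 to 43690), Lcn2 14010 CPM (11578 to 15924) and Ltf 6115 CPM (4637 to 8127). Camp and Ngp overlapped, while Lcn2 was above Ltf and below Ngp in all 12 libraries. Retnlg was the lowest in level and the most variable, at a median of 3763 CPM (2482 to 6854), and its range overlapped that of Ltf.

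The order in which the genes appeared was followed over 5 stages. Cebpe-negative granulocyte progenitors (11876 cells) and Cebpe-positive progenitors with under 5 late-marker UMIs per 10000 (7214 cells) formed the earliest 2. Cebpe-positive progenitors with at least 5 (4357 cells), maturing neutrophils with under 100 (822 cells) and maturing neutrophils with at least 100 late-marker UMIs per 10000 (1176 cells) formed the later 3, the late markers being the 9 genes of the gate. The stages are ranges of a score and not cell types: 14.9% of Cebpe-positive progenitors and 41.8% of maturing neutrophils lay within 20% of their dividing value. The markers that divide the stages are themselves late neutrophil genes, so genes that accompany them differ between stages, and these steps describe an order rather than test one. Where late markers divide 2 stages, a rise of such genes was built into the division. The p-values and counts given for those steps show how even a difference was over libraries, and are no test of a rise.

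S100a8 and S100a9 had reached the highest levels of the 7 by the third stage. S100a8 had medians of 107 and 113 CPM in the 2 earliest stages, 2892 CPM in Cebpe-positive progenitors with more late markers, 141990 CPM in the earlier maturing neutrophils and 173237 CPM in the later ones. S100a9 followed at 16.2, 13, 966, 146571 and 182455 CPM. At the third stage, in MxCre replicate 1, the 7 genes summed to 6511 CPM, or 2061 CPM without the 49 of 298 cells that had at least 1% of their UMIs in them, and the median cell had 0.143%. Over the 14 libraries the summed level had a median of 3964 CPM, and of 1769 CPM without such cells. Between the 2 groups of Cebpe-positive progenitors, S100a8 rose by a log2 fold change of 4.87 (SE 0.116, adjusted p = 1.33e-28) and S100a9 by 5.70 (SE 0.155, adjusted p = 5.47e-27) in edgeR's quasi-likelihood test paired by library, each higher in 14 of 14 libraries. In this step 5 of 5 tested members rose, while 30.6% of all genes tested were called higher and 33.0% lower. With library totals the split over all genes was 19.2% higher and 50.4% lower, and 5 of 5 members rose. Late markers divided these 2 groups, so the counts of members are no test of a rise.

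The step from progenitor to maturing neutrophil held the largest change of each of the 5 members tested both in it and in the step before. Camp went from a median of 71.9 to 55446 CPM (log2 fold change 9.96, SE 0.348), Ngp from 8.96 to 37994 CPM (11.86, SE 0.334) and Lcn2 from 51.1 to 12239 CPM (8.15, SE 0.148). S100a8 (5.94, SE 0.159) and S100a9 (7.65, SE 0.203) had the smallest changes of these 5. All 5 were higher in 11 of 11 libraries, and the highest of their adjusted p-values was 7.59e-25 (Camp). Ltf went from a median of 0.44 to 4471 CPM. Ltf and Retnlg passed the filter on low counts at this step only through the maturing neutrophils, where they are high, so their levels are given as a description. Of all genes tested, 34.6% were called higher and 41.6% lower in this step. With library totals in place of TMM factors (the scaling that edgeR estimates from most genes) the split was 19.8% higher and 60.4% lower, the median over all genes moved from -0.12 to -0.64, and the 5 members stayed higher.

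Camp and Ngp were already higher at the third stage. Camp rose by 4.55 (SE 0.188) between the 2 groups of Cebpe-positive progenitors, from a median of 3.02 to 71.9 CPM, and Ngp rose by 2.66 (SE 0.178), from 1.55 to 8.96 CPM. Both were higher in 14 of 14 libraries. Ltf (0.21 and 0.44 CPM) and Retnlg (0.32 and 0.47 CPM) were too low to be tested there.

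Lcn2 differed from the other secondary granule genes at the start. It was already at a median of 35.8 CPM in Cebpe-negative progenitors, at 44.5 CPM in Cebpe-positive progenitors with few late markers, and at 51.1 CPM in those with more. The earliest step was small but present in 14 of 14 libraries (log2 fold change 0.32, SE 0.0259, adjusted p = 4.28e-13). In the next step Lcn2 had a log2 fold change of 0.23 (SE 0.0511, adjusted p = 1.74e-04), or 0.14 with library totals (adjusted p = 0.0179), with 9 of 14 libraries higher. S100a9 fell in the earliest step (log2 fold change -0.35, SE 0.0774, adjusted p = 3.26e-04), though it was higher in 5 of 14 libraries. Its level there was near that of erythroid-gated cells. Pooled over libraries, it was 27.7 CPM in Cebpe-negative progenitors and 23.9 CPM in erythroid-gated cells. The part of such background in the fall was not tested. S100a8 had a log2 fold change of -0.22 (adjusted p = 0.0512), which passed the threshold with RLE size factors (adjusted p = 0.0439) and without Dnmt3a replicate 4 (-0.26, adjusted p = 0.0252). Of the 5 members tested in the earliest step 1 was called higher and 1 lower, against 21.9% and 23.3% of all genes tested. With RLE size factors 1 was called higher and 2 lower, against 21.1% and 24.6%. The counts of the main fit lie near these shares, and nothing is read from them.

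Retnlg came last. Its median was 0.47 CPM in the later Cebpe-positive progenitors, 1218 CPM in the earlier and 7360 CPM in the later maturing neutrophils. Between the 2 groups of maturing neutrophils it rose by 2.57 (SE 0.13, adjusted p = 1.33e-12), the largest change of the 7 in that step. Ltf rose by 0.97 (SE 0.0669) and Lcn2 by 0.62 (SE 0.0528), and S100a8 and S100a9 by 0.44 and 0.46, each in 10 of 10 libraries. With library totals S100a8 rose by 0.26 and S100a9 by 0.28. Ngp rose by 0.29 (adjusted p = 7.24e-05), a call lost with library totals (0.10, adjusted p = 0.0611). Camp was flat at -0.02 (SE 0.0518, adjusted p = 0.791), and fell by 0.20 with library totals (adjusted p = 5.56e-04). In this step 6 of 7 members were called higher, against 32.3% of all genes tested, with 30.9% lower. With library totals 5 of 7 members were called higher and 1 lower, and the split over all genes was 21.1% higher and 41.8% lower.

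**Figure D2:**
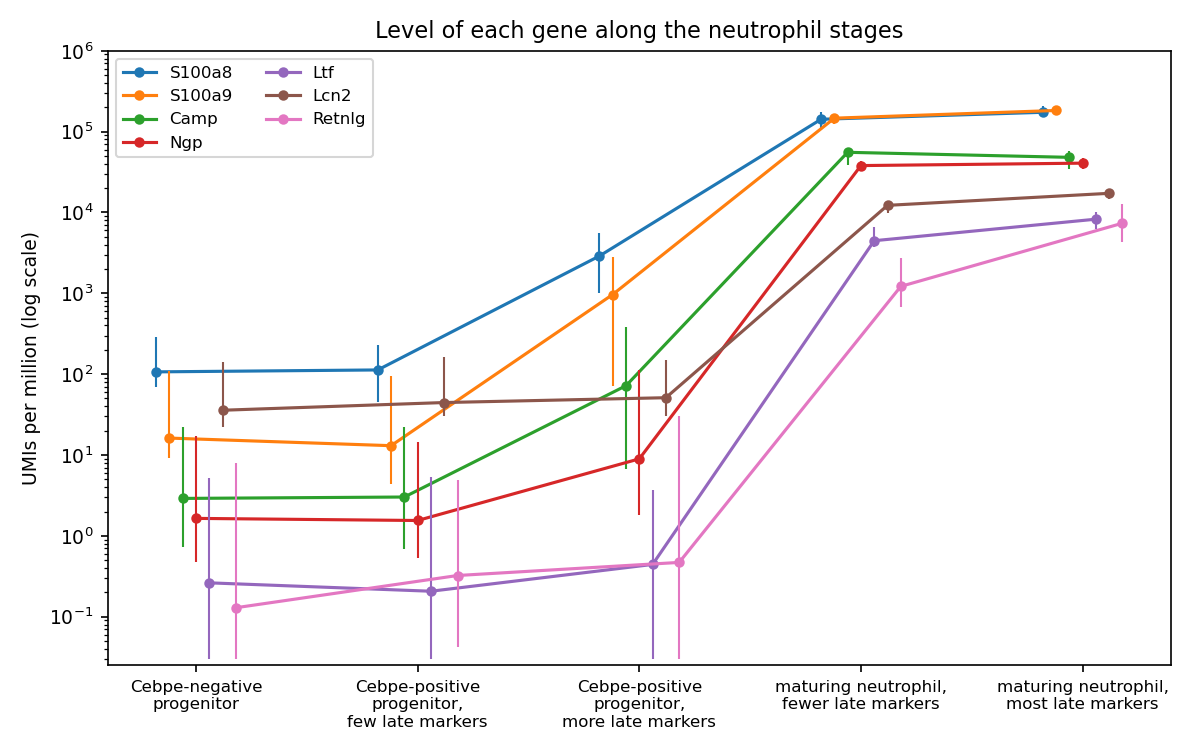
Level of each of the 7 genes in CPM on a log scale (points: median over libraries; bars: lowest to highest library) at 5 stages from Cebpe-negative progenitors to maturing neutrophils with most late markers. S100a8, S100a9, Camp and Ngp are higher at the third stage than before it, Lcn2 starts at 35.8 and stays near 50 until the maturing stages, and Retnlg keeps climbing between the last 2 stages.

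The balance of the 2 S100 genes shifted with maturation. In the 12 libraries with at least 20 maturing neutrophils, the ratio of S100a8 to S100a9 UMIs was followed in both stages. It had a median of 3.3 (1.99 to 4.22) in Cebpe-positive progenitors with more late markers and of 0.988 (0.827 to 1.25) in maturing neutrophils. It was higher in the progenitors in 12 of 12 libraries (exact two-sided sign-flip permutation test over libraries, p = 4.88e-04, the smallest it can give; adjusted p = 8.30e-04 over 17 such comparisons). No maturing neutrophil value reached the range of the progenitors. In Cebpe-negative progenitors the ratio had a median of 6.23 (1.91 to 10.5) over all 14 libraries, a wider set than the 12 above. S100a8 thus made up 74.4% of the 7-gene signal on average in Cebpe-positive progenitors with more late markers, and 36.0% in maturing neutrophils.

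**Figure D3:**
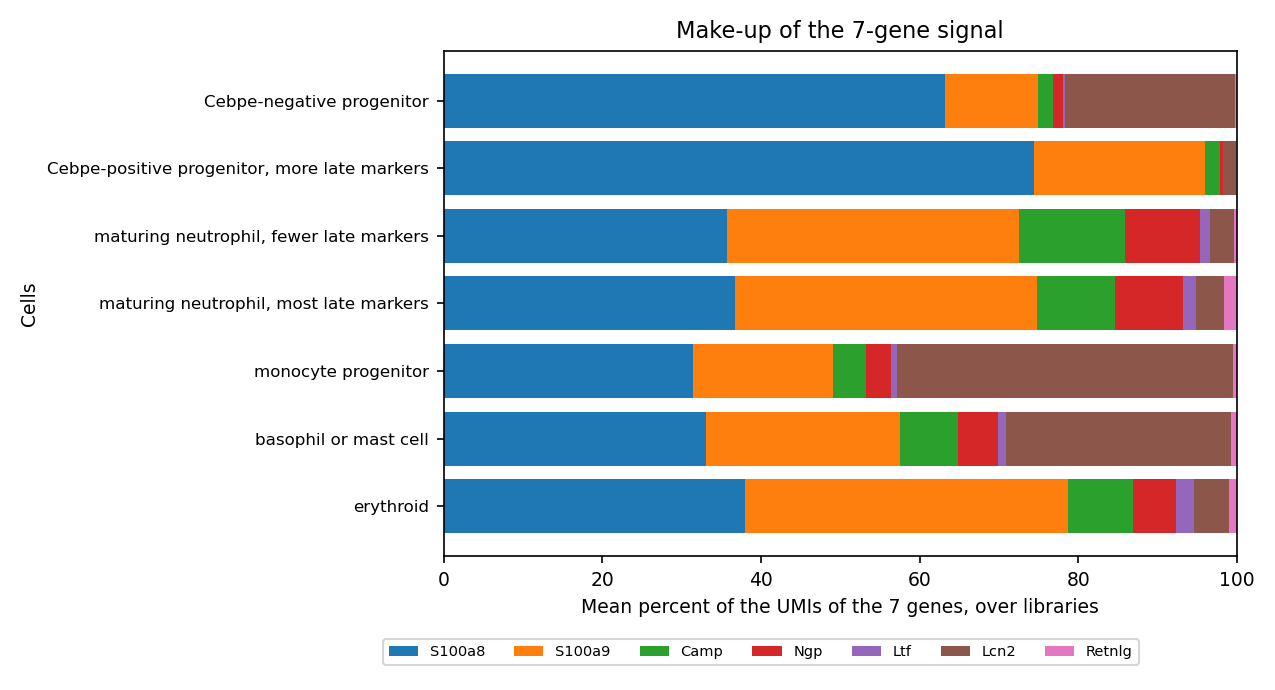
Mean percent of the UMIs of the 7 genes that each gene supplies (stacked bars, over libraries), for stages and lineage gates. S100a8 is the main part in granulocyte progenitors, Lcn2 is 21.4% in Cebpe-negative progenitors, and S100a8 and S100a9 supply near-equal parts in erythroid-gated cells and maturing neutrophils, with smaller parts of Camp and Ngp in the erythroid-gated cells.

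Members were also present outside the neutrophil gate at levels that differed between lineages. Erythroid-gated cells (precursors of red cells, whose known programme does not include these genes) served as the reference for signal of no lineage. Pooled over libraries, S100a8 was at 21.7 CPM there and 16.8 CPM in megakaryocyte-gated cells. It was at 87.2 CPM in B-lymphoid and 90.7 CPM in T, NK or innate lymphoid cells. Lcn2 was at 2.05, 1.32, 12.8 and 7.43 CPM in the same order. Median depths were 24333, 17722, 3918 and 4246 UMIs. A level above the erythroid one need not be above that of every such gate. In erythroid-gated cells S100a8 had a median of 9.09 CPM and Lcn2 of 1.2 CPM over 14 libraries. Cebpe-negative granulocyte progenitors had 107 CPM of S100a8, higher in 13 of 14 libraries (exact two-sided sign-flip permutation test, adjusted p = 6.92e-04). The exception was Tnfr1KO-labelled replicate 3, whose erythroid signal came nearly wholly from 1 cell.

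Lcn2 reached further than the other granule genes. Its median was 35.8 CPM in Cebpe-negative granulocyte progenitors and 22.6 CPM in monocyte progenitors, each higher than in erythroid-gated cells in 14 of 14 libraries (exact sign-flip permutation test, adjusted p = 4.15e-04 for each, from the smallest p it can give). In basophil or mast cells it was 19.9 CPM, higher in 11 of 12 libraries (adjusted p = 0.00226). Lcn2 supplied 45.1% of the 7-gene UMIs in monocyte progenitors, 22.6% in basophil or mast cells and 20.7% in Cebpe-negative progenitors (medians over libraries), against 3.91% in erythroid-gated cells. Stem or multipotent cells had a median of 1.69 CPM of Lcn2, and megakaryocyte-gated cells 0.80 CPM. Mature monocyte or macrophage cells (633) were not part of these tests. Pooled over libraries, they had 55.7 CPM of Lcn2, 300 of S100a8, 182 of S100a9 and 23.1 of Retnlg. Cebpe-negative progenitors had 46.5, 126, 27.7 and 0.884 CPM in the same order, also pooled.

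Lcn2 in progenitors also varied between mice. In Cebpe-negative progenitors 11 of the 14 libraries lay between 22.2 and 50 CPM, Dnmt3a replicate 4 and Tnfr2KO replicate 4 were at 53.0 and 53.1 CPM, and Tnfr2KO replicate 3 was at 142 CPM. The same mouse was the highest in Cebpe-positive progenitors (158 CPM) and in monocyte progenitors (81.1 CPM). Its S100a8 in Cebpe-negative progenitors, 186 CPM, was within the range of the other libraries (69.2 to 289 CPM). No group shared the high Lcn2 level, since the other 3 Tnfr2KO mice had 25.7, 23.6 and 53.1 CPM.

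The same order was seen per cell at equal depth. With each cell thinned to 3000 UMIs, S100a8 was detected in a median of 11.5% of Cebpe-negative progenitors, 36.6% of Cebpe-positive progenitors and 100% of maturing neutrophils, and in 3.80% of erythroid-gated cells (0.483% to 25.4% by library). Lcn2 was detected in 10.8%, 13%, 99.3% and 0%, and in 6.28% of monocyte progenitors. Among maturing neutrophils with at least 3000 UMIs, Camp (95.1%), Ngp (97.6%) and Ltf (86.3%) were found in most at this depth, and Retnlg in 42.9%. Without thinning, with the shallower cells of the gate included, the medians were 86.3% for Camp, 91.2% for Ngp, 79.6% for Ltf and 65.8% for Retnlg. The thinned shares of Camp, Ngp and Ltf are thus not those of the whole gate. Without thinning the S100a8 shares were 44.0%, 67.9%, 100% and 20.4% in the same order, with median depths of 32069, 30929, 7865 and 26483 UMIs (Cebpe-negative granulocyte progenitor, Cebpe-positive granulocyte progenitor, maturing neutrophil and erythroid gates). Thinning left out a median of 14.5 maturing neutrophils per library (4 to 93).

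Other genes of granules and of late neutrophils were counted over lists without the markers of the maturing neutrophil and granulocyte progenitor gates. Of 21 other granule and late neutrophil genes tested in the step into maturing neutrophils, 20 were higher and 1 lower, against 34.6% higher and 41.6% lower over all genes. Of the same list 17 genes had passed the filter on low counts in the step before, so some of the 21 entered only through the maturing neutrophils and had to differ there. Between the 2 groups of maturing neutrophils, 20 of 24 were higher and 0 lower, or 17 higher and 3 lower with library totals, against 32.3% higher and 30.9% lower over all genes, or 21.1% and 41.8%. Of the primary granule genes 7 of 8 were higher between the groups of Cebpe-positive progenitors, where 30.6% of all genes were. In the next 2 steps 3 of 8 were higher and 5 lower, and 1 of 7 higher and 5 lower. With library totals these 2 splits were 2 higher and 6 lower, and 0 higher and 6 lower, against 19.8% and 60.4%, and 21.1% and 41.8%, over all genes. The share higher in the step into maturing neutrophils lies near that of all genes, and nothing is read from it. Of the other S100 genes 3 of 5 were higher and 1 lower in the step into maturing neutrophils, and of the regulators 7 of 10 higher and 2 lower. Of receptors and relatives of the secreted products 4 of 7 were higher and 3 lower. With library totals these splits were 3 and 2, 6 and 3, and 2 and 3. Of receptors and relatives 5 had passed the filter in the step before. Some of the 7 may have entered only through the maturing neutrophils, where they would have to differ, so nothing is read from their split.

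By lowest p-value, the step into maturing neutrophils was led among these lists by Ifitm6, an interferon-induced membrane protein family member (log2 fold change 10.34, adjusted p = 4.57e-38), Lyz2, lysozyme (6.64), and Cybb, the catalytic part of the phagocyte oxidase (5.67). Before it, between the groups of Cebpe-positive progenitors, the leading genes were Ms4a3 (0.73), Srgn, the proteoglycan that packs granule proteins (0.81), and Trem3 (1.08). At the earliest step Irf8, the regulator of monocyte fate, fell by 2.08 on the log2 scale, and Ltb4r1 (0.84) and Nkg7 (0.44) rose. At the last step Nkg7 fell by 2.81, and Fpr2, a formyl peptide receptor (2.40), and S100a6 (2.26) rose. Adjusted p-values for these 12 changes were all from edgeR's quasi-likelihood test and at most 2.51e-23 in the earlier 3 steps and 1.33e-12 in the last.

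The 5 genes most like the members over 127 sums of lineage by library, out of 5793 candidates, were 4930438A08Rik (Pearson's r = 0.960), Orm1 (0.958), Slco4c1 (0.953), Inhba (0.952) and Ankrd22 (0.950), by correlation with the mean log2 level of the 7 genes. Candidates had a mean of at least 10 CPM in the maturing neutrophil sums, and members and lineage markers were left out. This is a description, since the sums of a lineage share libraries and depth. Genes picked in this way had to be high in maturing neutrophils and low elsewhere, so nothing is read from that contrast. Orm1, an acute-phase plasma glycoprotein, averaged 179 CPM in maturing neutrophils, 0.96 CPM in Cebpe-positive progenitors and 0.011 CPM in erythroid-gated cells. Inhba, a subunit of activin, averaged 89.2, 0.28 and 0 CPM in the same order.

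A low level of the members was present in lineages that should lack them. In erythroid-gated cells it followed the summed level of the 7 genes over all kept cells of the library. Erythroid-gated cells with under 1% of their UMIs in the 7 genes had a summed level of 6.73 CPM (Tnfr2KO replicate 2) to 297 CPM (Dnmt3a replicate 4). This was 0.324% to 3.20% (median 0.852%) of the level over all kept cells of the same library. Over the 14 libraries, log2 levels in erythroid-gated cells and in all kept cells were correlated (Pearson's r = 0.866, permutation p = 1.00e-04; Spearman's rho = 0.877, permutation p = 1.30e-04), with r = 0.854 without Dnmt3a replicates 1 and 4, the libraries farthest from the median. Both measures come from the same library, and the erythroid-gated cells are part of all kept cells.

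The gene mix of the erythroid signal differed from that of maturing neutrophils in the parts of Camp, Ngp and S100a9, while the ratio of the 2 S100 genes was not shown to differ. The ratio of S100a8 to S100a9 was a median of 0.937 in erythroid-gated cells and 0.988 in maturing neutrophils of the same 12 libraries, a difference that did not pass the threshold (exact sign-flip permutation test, adjusted p = 0.854; mean difference of the log2 ratio -0.016, SD 0.291). In Cebpe-negative progenitors it was 6.23, above the erythroid value in 14 of 14 libraries (adjusted p = 4.15e-04). Camp (8.54% against 12.1%) and Ngp (5.75% against 9.26%) were smaller parts of the erythroid than of the neutrophil signal in 12 of 12 libraries (adjusted p = 8.30e-04 for each), and S100a9 (40.4% against 37.8%) was a larger part in 10 of 12 (adjusted p = 0.0131). The other 4 genes did not pass the threshold, with adjusted p from 0.0849 to 0.635. These ratios and parts used all erythroid-gated cells, so those of Tnfr1KO-labelled replicate 3 came nearly wholly from 1 cell. Some rest on few cells. Camp was detected in 1.27% of erythroid-gated cells in Dnmt3a replicate 3, and Ngp in 1.16% in Tnfr1KO-labelled replicate 1.

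The erythroid level did not separate the groups. In MxCre it was 48.1, 68.1 and 24.0 CPM, and in Dnmt3a 15.9, 9.10, 19.2 and 297 CPM. In Tnfr1KO-labelled it was 27, 23.7 and 28.8 CPM, and in Tnfr2KO 20.2, 6.73, 138 and 30.1 CPM. The groups overlapped in all 4 comparisons. With no limit on cells the exact two-sided permutation p-values on log2 levels ran from 0.457 to 0.914 (adjusted p = 0.914 for each), and the smallest p that these group sizes allow was 0.0286. The value of Tnfr1KO-labelled replicate 3 was 337 CPM with all cells, of which 91.5% came from 1 cell.

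**Figure D4:**
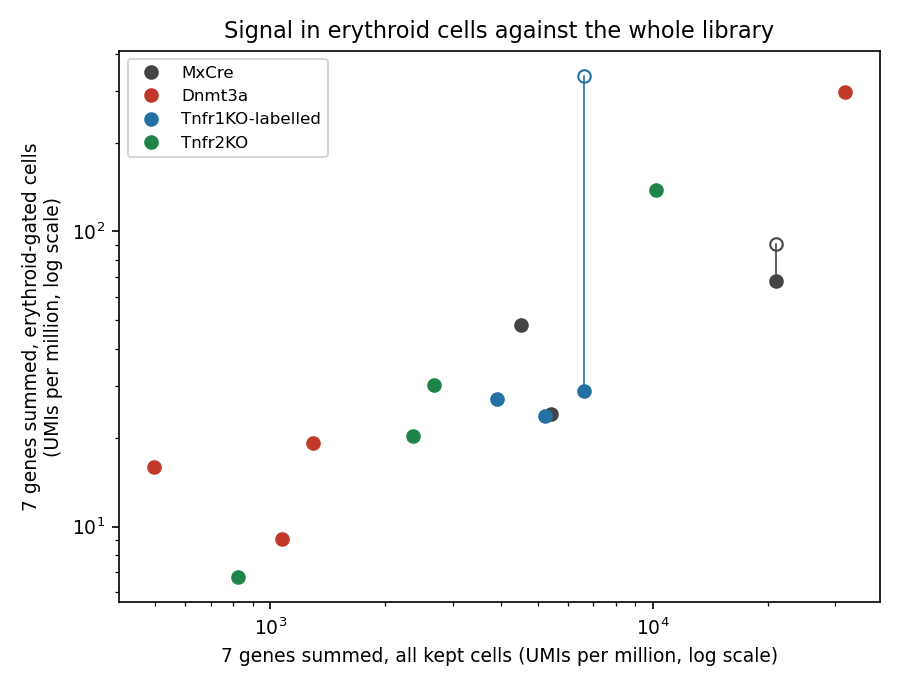
Summed level of the 7 genes in erythroid-gated cells (vertical, cells with under 1% of UMIs in these genes) against the level over all kept cells of the same library (horizontal), both in CPM on log scales, 1 point per mouse, coloured by group. Points climb together from 6.73 and 825 in Tnfr2KO replicate 2 to 297 and 31860 in Dnmt3a replicate 4.

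To ask whether genotype changed the number of maturing neutrophils, their share of kept cells was compared between mice. In MxCre it was 1.81%, 8.47% and 2.70%, and in Dnmt3a 0.312%, 0.334%, 0.548% and 14.3%. In Tnfr1KO-labelled it was 1.46%, 2.09% and 3.72%, and in Tnfr2KO 1.00%, 0.445%, 4.35% and 1.10%. Of the 4 Dnmt3a mice 3 lay below every MxCre and every Tnfr1KO-labelled mouse, and the fourth, replicate 4, was the highest of all 14. None of the 4 comparisons passed the threshold (exact two-sided permutation test on group means, p = 0.914 for Dnmt3a against MxCre, 1 for Tnfr1KO-labelled against Dnmt3a, 0.971 for Tnfr2KO against Dnmt3a and 0.543 for Tnfr2KO against Tnfr1KO-labelled; adjusted p = 1 for each). For the share of maturing neutrophils, Dnmt3a against MxCre, the mean difference was -0.45 percentage points, and -3.93 without Dnmt3a replicate 4. It turned positive without any one of 4 other mice, at 1.62 without MxCre replicate 2 and at 0.73, 0.73 and 0.65 without Dnmt3a replicates 1, 2 and 3.

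The cells were sorted for Kit, and a sort can set such shares. Dnmt3a replicate 4 had the lowest Kit level of any library in erythroid-gated cells (12.4 CPM against 63.9 to 216) and the lowest median depth. Over all kept cells its Kit level, 81.1 CPM, was not the lowest. Tnfr2KO replicate 4 had 69.2 CPM there and Tnfr2KO replicate 3 had 81.3 CPM. The haemoglobin gene Hbb-bs was at 10751 CPM over all kept cells of Dnmt3a replicate 4, against 129 to 1400 CPM in the other 13 libraries. In Cebpe-negative progenitors of Dnmt3a replicate 4 it was at 615 CPM, against 7.19 to 107 CPM. The part of these in the neutrophil share of Dnmt3a replicate 4 was not tested.

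**Figure D5:**
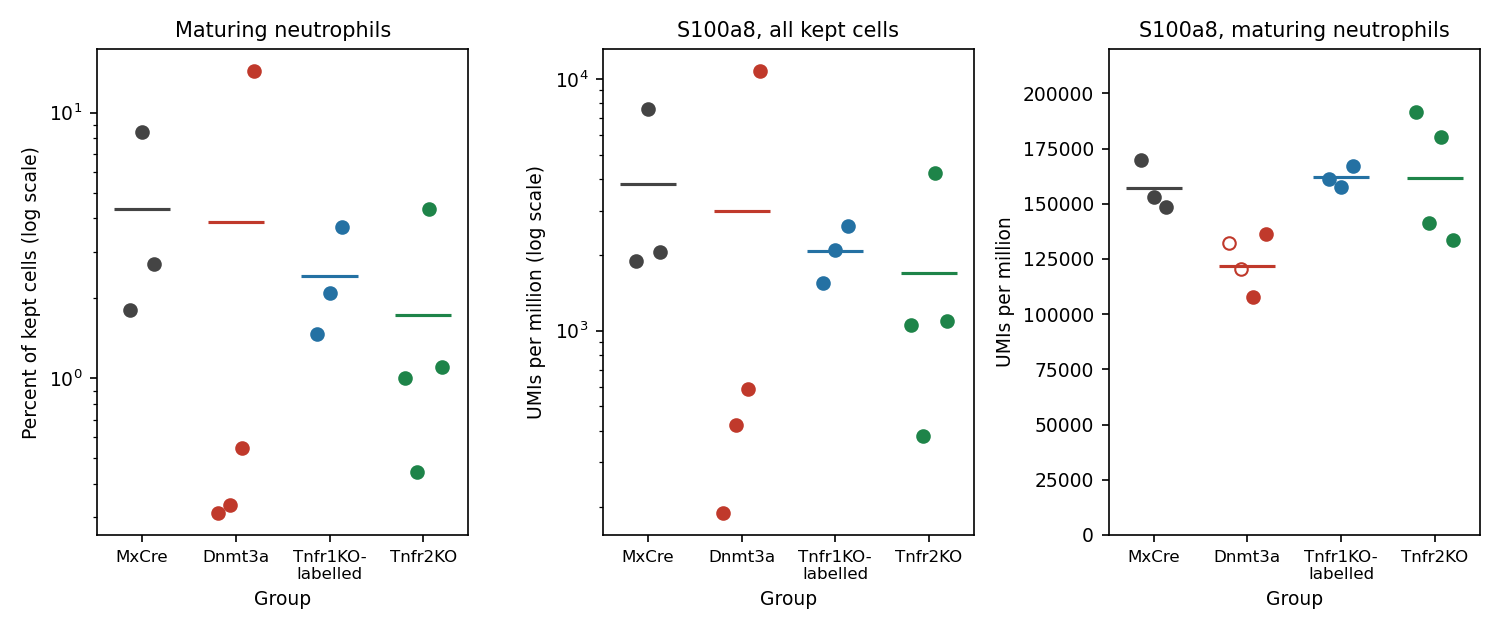
Percent of kept cells in the maturing neutrophil gate (left, log scale), S100a8 level over all kept cells (middle, CPM, log scale) and S100a8 level in maturing neutrophils (right, CPM) by group, with 1 point per mouse, a line at the group mean and open points for the 2 libraries with fewer than 20 such cells, left out of the mean. In Dnmt3a, 3 mice lie below every MxCre mouse in the left and middle panels and replicate 4 lies above all mice, at 14.3% and 10723.

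Over all kept cells the levels followed these shares; in such sums fewer neutrophils and less RNA per neutrophil cannot be told apart. S100a8 was 1889, 7588 and 2049 CPM in MxCre and 189, 423, 586 and 10723 CPM in Dnmt3a. It was 1546, 2083 and 2602 CPM in Tnfr1KO-labelled and 1054, 383, 4241 and 1092 CPM in Tnfr2KO. The other 6 members had the same highest library, Dnmt3a replicate 4, with 12092 CPM of S100a9, 3917 of Camp, 2845 of Ngp, 603 of Ltf, 1174 of Lcn2 and 506 of Retnlg. In these levels, as in their shares of maturing neutrophils, the other 3 Dnmt3a mice were below every MxCre mouse. The levels follow those shares and are not independent of each other. How many of all genes split in this way was not counted, and nothing is read from the number of members.

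Of the 7 members 0 passed the threshold between groups over all kept cells, in edgeR's quasi-likelihood test over all genes and equally in DESeq2, and 0 of 7 had an unadjusted p under 0.05. Of all genes, edgeR called 2.35% between Dnmt3a and MxCre, 0.543% between Tnfr1KO-labelled and Dnmt3a, 0.882% between Tnfr2KO and Dnmt3a and 0.192% between the 2 receptor groups. The comparisons share the Dnmt3a or Tnfr1KO-labelled mice. Dnmt3a against MxCre gave log2 fold changes from -0.48 (S100a8, SE 1.14, adjusted p = 0.845) to 0.55 (Retnlg, SE 1.5, adjusted p = 0.865), with a median of -0.23 over the members and 0.03 over all genes. The median over the members was -0.64 for Tnfr1KO-labelled against Dnmt3a, -1.18 for Tnfr2KO against Dnmt3a and -0.28 for Tnfr2KO against Tnfr1KO-labelled.

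Direction and calls depended on single mice. Without MxCre replicate 2, all 7 members were higher in Dnmt3a than in MxCre, from 0.50 (S100a8) to 1.24 (Ltf) on the log2 scale, with 0 called. Without Dnmt3a replicate 4, 6 of 7 members were called lower in Dnmt3a than in MxCre, while 510 of 15527 genes were called. S100a8 then had a log2 fold change of -3.32 (SE 0.818, adjusted p = 0.0485), S100a9 -3.71, Camp -3.49, Ngp -3.51, Ltf -3.61 and Retnlg -4.33, and Lcn2 -2.93 (adjusted p = 0.0586) was not called. Tnfr1KO-labelled and Tnfr2KO were then higher than Dnmt3a by medians of 2.62 and 2.14 over the members, with 0 of 7 called in edgeR and 7 of 7 at an unadjusted p under 0.05. At that unadjusted p stood 3129 and 2873 of the 15527 genes tested, respectively.

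Within maturing neutrophils, the level per cell was compared apart from their number. S100a8 was 169613, 152934 and 148431 CPM in MxCre and 107589 and 136284 CPM in Dnmt3a replicates 3 and 4. Dnmt3a replicates 1 and 2, with 6 and 9 such cells, were left out for having fewer than 20, so this arm holds 2 mice. S100a8 was 161135, 157420 and 167262 CPM in Tnfr1KO-labelled and 191548, 141411, 180104 and 133619 CPM in Tnfr2KO. Both Dnmt3a values lay below all MxCre and all Tnfr1KO-labelled values, and the lower of them below all others.

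No member passed the threshold in this gate: 0 of 7 were called in each comparison by edgeR and by DESeq2. In edgeR 2, 1, 2 and 0 had an unadjusted p under 0.05, in the order above. No share of all genes at that unadjusted p is set beside these counts, and nothing is read from them. The share of all genes called was 0.0296% for Dnmt3a against MxCre, 0.0296% for Tnfr1KO-labelled against Dnmt3a, 0.0148% for Tnfr2KO against Dnmt3a and 0% for Tnfr2KO against Tnfr1KO-labelled. S100a8 had the lowest p of the members in each Dnmt3a comparison, with a log2 fold change of -0.58 against MxCre (SE 0.207, adjusted p = 0.818), 0.61 for Tnfr1KO-labelled (SE 0.207, adjusted p = 0.557) and 0.65 for Tnfr2KO (SE 0.199, adjusted p = 0.570). S100a9 was at -0.45, 0.32 and 0.38. Without Dnmt3a replicate 4, which leaves 1 Dnmt3a mouse whose spread is assumed to be like that of the other groups, S100a8 was at -0.86 against MxCre (adjusted p = 0.504). These values share the Dnmt3a mice. Tnfr2KO against Tnfr1KO-labelled gave 0.04 for S100a8 (SE 0.170).

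For the other 5 members in this gate no comparison passed the threshold either. Camp was at -0.16 for Dnmt3a against MxCre (SE 0.194), Ngp at -0.25 (SE 0.164), Ltf at -0.18 (SE 0.231), Lcn2 at -0.26 (SE 0.191) and Retnlg at -0.16 (SE 0.423). The highest Camp level, 56216 CPM (Tnfr2KO replicate 1), and the lowest, 36391 CPM (Tnfr2KO replicate 3), came from the same group. Ltf was lowest and highest in the 2 Dnmt3a mice, at 4637 CPM (replicate 3) and 8127 CPM (replicate 4), and Retnlg was 2609 and 6529 CPM in them.

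In Cebpe-positive granulocyte progenitors, where the S100 genes first rise, the members were also tested, a population chosen after the data were seen. S100a8 was 1960, 2566 and 1391 CPM in MxCre and 261, 602, 1066 and 2417 CPM in Dnmt3a. It was 673, 1202 and 1382 CPM in Tnfr1KO-labelled and 700, 828, 1740 and 1302 CPM in Tnfr2KO. Of 7 members 0 were called in each comparison in edgeR and in DESeq2. In edgeR 0, 1, 1 and 0 had an unadjusted p under 0.05. Here too no share of all genes at that unadjusted p is set beside these counts, and nothing is read from them. The share of all genes called was 4.76%, 3.75%, 4.31% and 0.241% in the same order of comparisons as above. S100a8 was at -1.03 in Dnmt3a against MxCre (SE 0.511, adjusted p = 0.239).

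Without Dnmt3a replicate 4, S100a8 (log2 fold change -1.78, adjusted p = 0.0411), S100a9 (-2.70), Camp (-3.43) and Ngp (-2.74) were called lower in Dnmt3a than in MxCre in these progenitors, while 531 of 12517 genes were called. Retnlg also passed the threshold, but it was at 0.437, 8.62 and 0.802 CPM in MxCre and at 0.174, 0.0664 and 0.114 CPM in Dnmt3a replicates 1 to 3, too low outside MxCre replicate 2 to be read as more than these levels. Cells with more late markers, in which the S100 genes are higher, numbered 298, 211 and 140 in MxCre beside 502, 262 and 236 with few. In Dnmt3a replicates 1 to 3 they numbered 44, 93 and 364 beside 183, 299 and 782, a smaller part of the gate than in any MxCre mouse. Wfdc21, 1 of the 9 late markers that divide these cells, was itself lower in Dnmt3a than in MxCre in this gate (log2 fold change -1.60, adjusted p = 0.0179 in edgeR's quasi-likelihood test with all Dnmt3a mice). The part of Wfdc21 in these cell numbers was not tested, nor the part of this mix in the differences. Ltf (-3.10, adjusted p = 0.113) and Lcn2 (-0.43, adjusted p = 0.572) were not called. Camp, the highest of the 4 granule and late genes there apart from Lcn2, was at most 169 CPM in any library in this gate, beside at most 28.7 CPM in erythroid-gated cells. The part of free RNA in these differences was not tested.

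Few other genes of the lists were called between groups. Over all kept cells S100a1 (log2 fold change -0.65, adjusted p = 0.0425) and Clec4d (-0.89, adjusted p = 0.0468) were lower in Dnmt3a than in MxCre, and none was called in the other 3 comparisons. These were 1 of 9 other S100 genes and 1 of 33 other granule and late neutrophil genes. Of 14 primary granule genes, 13 regulators and 12 receptors and relatives 0 were called. Of all genes 2.35% were called, and nothing is read from so few calls beside that share. In maturing neutrophils none of the list genes was called in any comparison by edgeR, and the lowest p in Dnmt3a against MxCre was that of Wfdc21 (-0.81, adjusted p = 0.331), a whey acidic protein of neutrophils that is also 1 of the 9 gate markers.

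In Cebpe-positive progenitors, S100a13 (-0.61, adjusted p = 0.0153), S100a1 (-0.66) and Wfdc21 (-1.60, adjusted p = 0.0179) were lower in Dnmt3a than in MxCre. Wfdc21 was higher than in Dnmt3a in Tnfr1KO-labelled (1.47, adjusted p = 0.0258) and in Tnfr2KO (1.47, adjusted p = 0.0190). These comparisons share the Dnmt3a mice. Tnfr1KO-labelled was also higher than Dnmt3a for S100a13 (0.46, adjusted p = 0.0420) and Cfp (0.69, adjusted p = 0.0443). Between Dnmt3a and MxCre, where 4.76% of all genes were called, 3 of the 6 other S100 genes tested were lower and 0 higher, and 1 of the 24 other granule and late neutrophil genes was lower and 0 higher. Of the regulators 1 of 13 was lower (Cebpb, -0.74, adjusted p = 0.0240, named after its value was seen), and 0 of 14 primary granule genes and 0 of 7 receptors and relatives were called. Between Tnfr1KO-labelled and Dnmt3a, where 3.75% of all genes were called, 1 of the 6 was higher and 1 lower, and 2 of the 24 were higher and 0 lower, with 0 called in the other 3 lists. Between Tnfr2KO and Dnmt3a, where 4.31% of all genes were called, 1 of the 24 was higher and 0 lower, with 0 called in every other list. That count lies near the share of all genes, and nothing is read from it.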

How the data were processed

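UMI counts per gene and cell came from 14 deposited 10x Chromium 3' v3.1 libraries, which the authors deposited as Cell Ranger output (version 6.0.0, per the file headers); bcl2fastq 2.20.0.422 and the builds mm10 and GRCm38 stand in the submitters' processing notes. Cells with at least 1000 UMIs, 500 genes and under 10% mitochondrial UMIs were kept, and doublets were removed at an assumed 0.8% per 1000 cells. The thresholds of the 12 marker gates were set after the marker distributions were seen. Counts were summed per library and gate (at least 20 cells) and tested with edgeR 4.0.16 (quasi-likelihood test, TMM, Benjamini-Hochberg adjustment, threshold 0.05) in R 4.3.3. DESeq2 1.42.0 served as an alternative. Exact permutation tests were computed with numpy 2.4.6. Correlations used scipy 1.17.1, and their p-values came from random permutations. Levels are CPM, UMIs scaled to 1000000 per sum of cells, without TMM. The edgeR steps were tested on simulated data. The members and the lists were chosen with earlier results of these data known. All 7 members were named throughout, companion lists by counts and at most the 3 genes of lowest p in a comparison, and the 5 genes of most similar pattern. Replicate numbers did not pair mice (19 same-numbered pairs, correlations of -0.36 to 0.24, 5 over 0.1). Gene positions are from the RefSeq table for GRCm38.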

Additional observations from a re-analysis of the deposited data

Results flagged for a closer look

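Within groups of 4 mice, 35 sets of values were checked for a mouse far from the other 3, and 12 stood out. Chance gives about 1 in 20 only for independent, normally distributed values. The values here were unlogged levels and percentages that share mice, so 12 of 35 cannot be judged by that rate. Of the 12 that stood out, 9 were Dnmt3a replicate 4. It had 14.3% maturing neutrophils (others 0.312% to 0.548%) and 297 CPM of the 7 genes in erythroid-gated cells (others 9.10 to 19.2). Over all its kept cells, levels in CPM were 10723 for S100a8, 12092 for S100a9, 3917 for Camp, 2845 for Ngp, 603 for Ltf, 1174 for Lcn2 and 506 for Retnlg. These 9 values are not independent, since they come from the same library and the levels over all its kept cells follow its share of maturing neutrophils.

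The other 3 were Tnfr2KO replicate 3. It had 4.35% maturing neutrophils (others 0.445% to 1.10%) and 108 CPM of Retnlg over all kept cells (others 7.56 to 16.4). Its Lcn2 in maturing neutrophils was 15924 CPM, and the other 3 mice lay between 13794 and 14016.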

How the results depend on the processing

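Of 784 alternatives for 56 fold changes of members between groups, 92 turned the direction, 2 of them to an adjusted p under the threshold and 4 kept it and moved past that threshold; these 2 and 4 are the 6 members called over all cells without Dnmt3a replicate 4, and the cause was not tested. With the replicate block, although numbers do not pair the mice, S100a8, S100a9 and Camp were called lower in Cebpe-positive progenitors for Dnmt3a against MxCre, among 488 of 12435 genes called; over all cells Ltf was -3.04 and Retnlg -3.96 there, Tnfr1KO-labelled against Dnmt3a gave 2.17 (S100a8), 2.30 (S100a9), 2.25 (Camp), 2.26 (Ngp), 1.96 (Ltf), 1.74 (Lcn2) and 2.80 (Retnlg), and Tnfr2KO against Dnmt3a 1.43, 1.43, 1.06, 1.2, 1.07, 0.995 and 2.01 in the same order; in maturing neutrophils Retnlg was 0.054 for Tnfr1KO-labelled against Dnmt3a. With the gate at 2 times the marker UMIs, maturing neutrophils gave Ltf 0.19 and Retnlg 0.49 (Dnmt3a against MxCre), Ltf -0.38 and Lcn2 -0.017 (Tnfr1KO-labelled against Dnmt3a), Ltf -0.22 and Retnlg -0.71 (Tnfr2KO against Dnmt3a) and Ngp 0.0015 (Tnfr2KO against Tnfr1KO-labelled). With doublets kept, Ltf was -0.020 (Tnfr1KO-labelled against Dnmt3a), Camp -0.029 and Retnlg -0.099 (Tnfr2KO against Dnmt3a), and S100a8 -0.058 and S100a9 -0.030 (Tnfr2KO against Tnfr1KO-labelled).

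The erythroid difference was -0.19 for Tnfr1KO-labelled against Dnmt3a and 0.053 for Tnfr2KO against Tnfr1KO-labelled in cells under 1%, and for Tnfr2KO against Dnmt3a 0.36 with the doubled gate and 0.61 in megakaryocyte-gated cells. Leaving out 1 mouse at a time moved it from -0.25 to 2.09, from -1.91 to 0.11 and from -0.91 to 0.96 in that order of comparisons, and the share of maturing neutrophils, Dnmt3a against MxCre, from -3.93 to 1.62 percentage points, -2.63 to 2.03 (Tnfr1KO-labelled against Dnmt3a) and -3.33 to 1.33 (Tnfr2KO against Dnmt3a). Members called went from 0 to 6 over all cells and 0 to 5 in Cebpe-positive progenitors for Dnmt3a against MxCre.

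Without 1 mouse at a time, over all cells, Dnmt3a against MxCre ranged from -3.32 to 0.50 (S100a8), -3.71 to 0.74 (S100a9), -3.49 to 1.03 (Camp), -3.51 to 0.86 (Ngp), -3.61 to 1.24 (Ltf), -2.93 to 0.94 (Lcn2) and -4.33 to 1.05 (Retnlg). In the same gene order, Tnfr1KO-labelled against Dnmt3a ranged from -0.73 to 2.52, -1.04 to 2.71, -1.07 to 2.62, -0.99 to 2.68, -1.48 to 2.60, -1.05 to 2.18 and -2.03 to 3.50, and Tnfr2KO against Dnmt3a from -1.59 to 2.28, -2.08 to 2.43, -2.15 to 1.86, -2.15 to 2.06, -2.57 to 2.14, -1.91 to 2.07 and -3.16 to 3.31. Tnfr2KO against Tnfr1KO-labelled ranged from -1.27 to 0.093 (S100a8), -1.46 to 0.071 (S100a9), -1.26 to 0.23 (Lcn2) and -1.78 to 0.46 (Retnlg).

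In maturing neutrophils the ranges were -0.75 to 0.20 (Ltf) and -1.08 to 0.38 (Retnlg) for Dnmt3a against MxCre, -0.30 to 0.65 (Ltf) and -0.72 to 0.74 (Retnlg) for Tnfr1KO-labelled against Dnmt3a, and -0.036 to 0.22 (Camp), -0.21 to 0.75 (Ltf) and -0.48 to 0.99 (Retnlg) for Tnfr2KO against Dnmt3a. For Tnfr2KO against Tnfr1KO-labelled they were -0.097 to 0.15 (S100a8), -0.097 to 0.17 (S100a9), -0.15 to 0.018 (Ngp), -0.041 to 0.21 (Ltf) and -0.053 to 0.16 (Lcn2).

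Counts of all genes called, in the order of comparisons used in the report, were 367, 85, 138 and 30 over all cells, against 1520, 909, 1096 and 103 in DESeq2, 7, 69, 17 and 41 with only the 2 groups fitted and 143, 36, 130 and 33 with the replicate block. In maturing neutrophils they were 2, 2, 1 and 0, against 17, 18, 23 and 0 in DESeq2, 59, 63, 44 and 34 with no filter and 3, 36, 4 and 1 with the doubled gate. In Cebpe-positive progenitors they were 592, 466, 536 and 30, against 1111, 946, 1118 and 56 in DESeq2. Maturing neutrophils are few in Dnmt3a replicates 1 and 2, which limits every comparison with that group.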

Other observations

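Outside all gates, 84 cells had at least 5% of their UMIs in the 7 genes, a set chosen after the values were seen. Their median depth was 1814 UMIs and the 7 genes were a median of 13.9% of it. Of these cells, 72 had no Camp UMI and 75 no Ngp UMI, 76 had a Retnlg UMI and 1 had a Kit UMI. Retnlg was 4.77% of their UMIs of the 7 genes, against 1.15% in the maturing neutrophil gate, and Camp 5.19% against 11.7%. They came from 12 libraries, 46 from Dnmt3a replicate 4 and 15 from MxCre replicate 2.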
